A study of Mus musculus with 6 samples.

Results

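The transcription factors of the MYC and MAX network were examined in CT26 tumors of mice treated with H89 or with NaCl. The members were given as a list of gene symbols (Myc, Max, Mxd1, Mxd3, Mxd4, Mga, Mlx, Mlxip and Mnt), chosen by name, and all 9 were found among the 23557 genes of the deposited table. All 9 also passed the filter on low counts, set at an average of 0.5 CPM or more (CPM, counts scaled to a library of 1000000), as did 13118 genes in all. CT26 is a colon carcinoma cell line of the BALB/c strain, and 500000 cells were injected under the skin of female BALB/c mice that were 7 weeks old when obtained. From day 6, mice received H89 at 10 mg/kg in NaCl, or NaCl as the control, 2 times a week into the peritoneal cavity, and tumors were removed on day 14 after cell injection. H89 is a kinase inhibitor best known for blocking protein kinase A. Total RNA of 3 NaCl tumors and 3 tumors of H89-treated mice, called H89 tumors here, was sequenced. By the description of the study, each group was made up of 3 mice. These tumors grew under the skin from 1 cell line and hold host cells beside the injected ones, in unknown proportion.

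MYC binds DNA only as a dimer with MAX, at the E-box, and raises transcription of genes for growth, nucleotide synthesis and ribosome production. The MXD proteins and MNT compete for the same partner and the same sites, and bring in SIN3 and histone deacetylases that repress. MGA also pairs with MAX, within a Polycomb complex called PRC1.6, while MLX pairs with the sugar-responsive factors MLXIP (MondoA) and MLXIPL (ChREBP) and with some of the MXD proteins and MNT. MYC messenger RNA and protein are both short-lived, and deregulated MYC is a common feature of colon tumors.

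The E-box, CACGTG, occurs in the promoters of some of the genes that encode the network itself. RefSeq promoters of GRCm38.p6, from 250 bases before to 50 bases after the annotated start, were matched for 8 of the 9 members, Myc having no entry. The E-box was present in 4 of these 8 promoters, those of Max, Mlx, Mnt and Mxd4, and in 7.15% of all 32851 promoters of the same length. The E-box reads the same on both strands. The stretches around it are shown because they hold the site that the network's own dimers bind, with the E-box in capitals, 20 bases on each side, 5′ to 3′ on the strand of the gene.
Max, chr12:76962226-76962271, minus strand: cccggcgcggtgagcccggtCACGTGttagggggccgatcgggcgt
Mlx, chr11:101087230-101087275, plus strand: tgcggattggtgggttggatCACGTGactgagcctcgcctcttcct
Mnt, chr11:74830781-74830826, plus strand: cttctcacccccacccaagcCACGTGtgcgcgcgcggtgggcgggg
Mxd4, chr5:34187904-34187949, minus strand: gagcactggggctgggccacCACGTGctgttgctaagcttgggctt
The first base of the E-box lay 3 bases before the RefSeq start in Max, so that the E-box spans that start. It lay 40 bases before the RefSeq start in Mlx, 123 in Mnt and 219 in Mxd4. In the annotation GENCODE M21, Max starts at 76962201 on the minus strand, and the whole stretch shown for Max lies before that start. The cAMP response element, through which protein kinase A acts on transcription by way of CREB, was searched in the same windows on both strands. Its full form, TGACGTCA, was in 0 of the 8 promoters and in 1.79% of all promoters. Its shorter form, TGACG or the reverse complement CGTCA, which the full form contains, was in 3 of the 8 (Mga, Mlx and Mlxip) and in 20.8% of all promoters. A match describes these letters in this window and does not show binding.

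The tumors had total counts between 27067349 and 31958793. CPM values below are on library sizes scaled by TMM (trimmed mean of M values). A difference is the log2 fold change of H89 against NaCl from the quasi-likelihood test of edgeR, with its standard error (SE), a 95% interval and a Benjamini-Hochberg adjusted p over all 13118 genes. Of these genes, 113 were called higher (0.861%) and 95 lower (0.724%) at an adjusted p under 0.05, or 1.59% in either direction. At an unadjusted p under 0.05, 13.1% were higher and 11.9% lower, or 25.0% in either direction. In 15.5% of genes all H89 tumors lay below all NaCl tumors, and in 15.2% all lay above.

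None of the 9 members was called higher or lower after adjustment (edgeR, 0 of 9 in each direction). At an unadjusted p under 0.05, 1 member was lower, Myc, and 0 were higher, a share of 11.1% lower against the 11.9% of all genes. Myc was also the only member whose groups did not overlap, or 11.1% of the 9. Over all genes, 15.5% had all H89 tumors below all NaCl tumors and 15.2% had all above, so non-overlap was not particular to Myc. DESeq2, run on the same counts, called 1 member, Myc, lower and 0 higher, and it called 5.68% of the 13350 genes to which it gave an adjusted p lower and 4.75% higher. The median log2 fold change of the 9 members was -0.07, beside 0.004 for all genes tested.

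**Figure D1:**
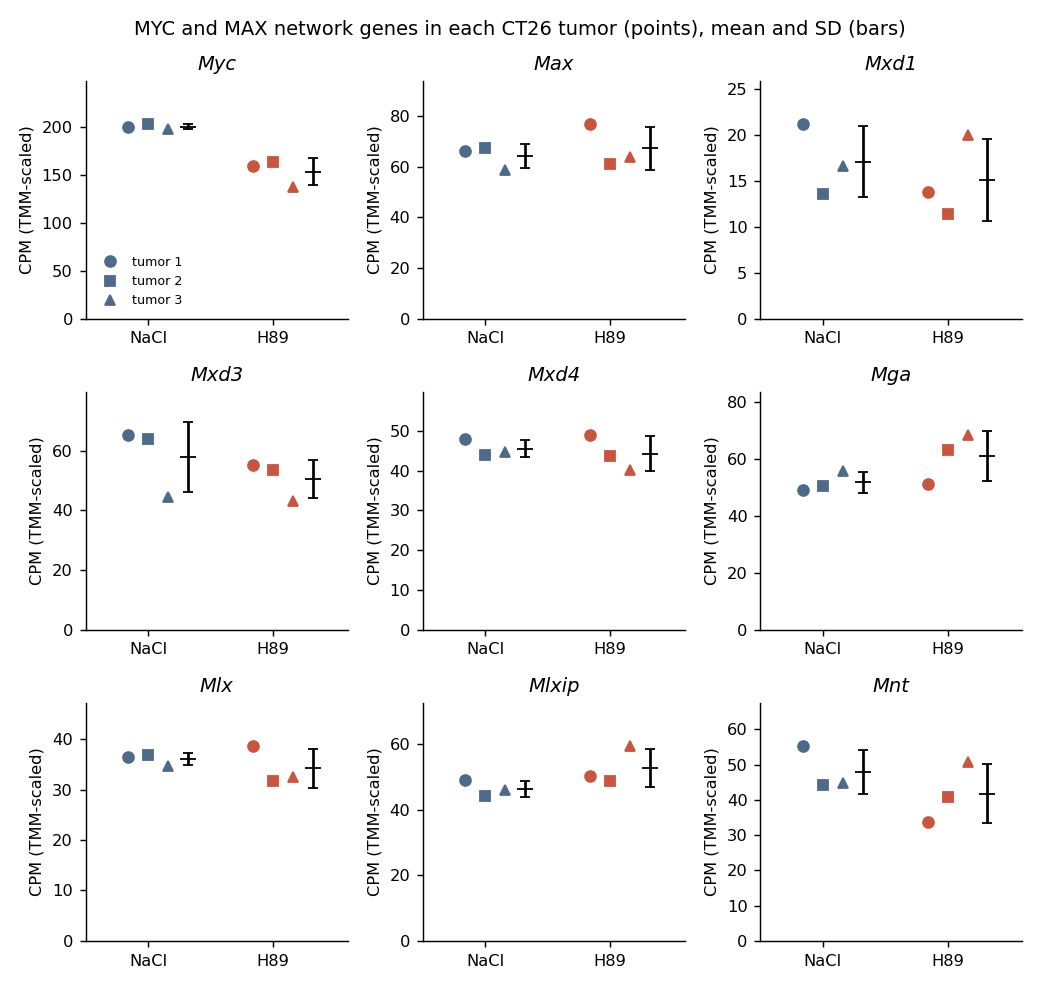
CPM on TMM-scaled library sizes (vertical axes, from 0) of the 9 network genes in each tumor, with 3 NaCl and 3 H89 tumors as points and the group mean ± SD as the bar at the right of each group. Myc is the only gene whose 3 H89 tumors (137.9 to 163.6 CPM) all lie below its 3 NaCl tumors (198.6 to 203.5 CPM).

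Myc (ENSMUSG00000022346, chromosome 15, 61985391 to 61990374 of GRCm38, plus strand) encodes the activating factor of the network. Its level was 199.8, 203.5 and 198.6 CPM in NaCl tumors 1 to 3. In H89 tumors 1 to 3 it was 159.6, 163.6 and 137.9 CPM. The NaCl tumors lay close together and all 3 H89 tumors lay under them, with H89 tumor 3 the lowest. The mean was 201 ± 2.58 CPM in NaCl and 154 ± 13.8 CPM in H89 tumors (SD, n = 3 each), a fold of 0.766 with a 95% interval of 0.663 to 0.885. The log2 fold change was -0.38 (SE 0.09, 95% interval -0.59 to -0.18, unadjusted p = 0.002846, adjusted p = 0.0722 in edgeR). By p, Myc ranked 513 among the 13118 genes. The exact two-sided permutation test of mean log2(CPM + 0.5) gave p = 0.1, the smallest that 3 against 3 tumors allow. Between 4476 and 5555 estimated counts of Myc stood behind each value, and they lay within 0.012 of whole numbers. DESeq2 gave an adjusted p of 0.002867, whereas over all alternatives the adjusted p ranged from 0.002867 to 0.177.

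**Figure D2:**
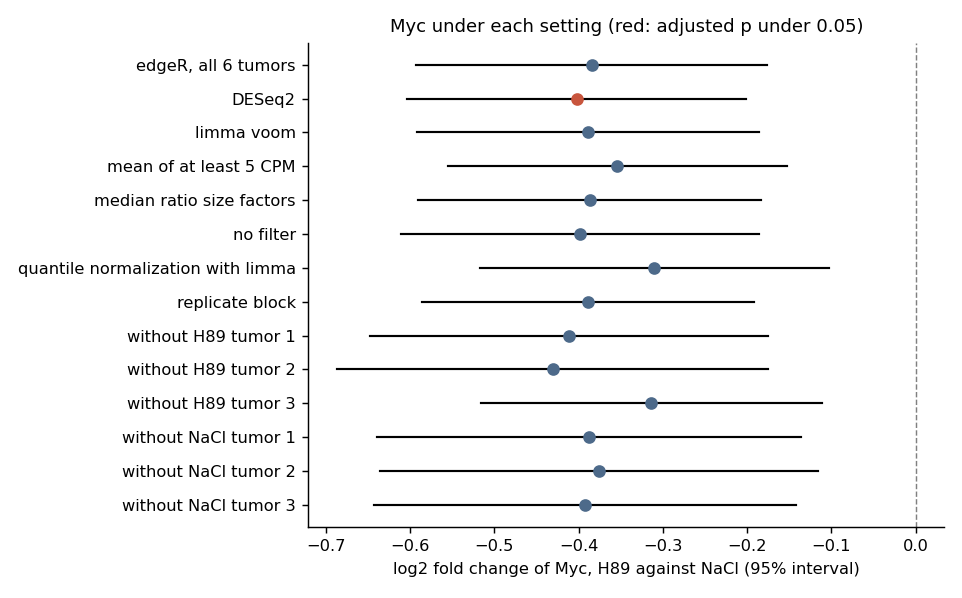
Log2 fold change of Myc, H89 against NaCl (horizontal axis), with its 95% interval, in the edgeR fit of all 6 tumors and in 13 alternatives, tumor numbers being those of the labels. The estimates lie between -0.43 and -0.31, every interval is below 0, and only DESeq2 (red) has an adjusted p under 0.05.

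Summed levels of several lists of cell type markers differed between the groups, and their part in the value of Myc was not tested. In bulk tumors, fewer cells of a type and less RNA per cell cannot be told apart. Of 12 T and NK cell markers tested, 12 had a log2 fold change above 0, 6 with an unadjusted p under 0.05 and 0 after adjustment (edgeR), and their summed level was 25.1 to 110 CPM in NaCl and 64.5 to 207 CPM in H89 tumors. Of 6 dendritic cell markers tested, 5 were higher at an unadjusted p under 0.05, with sums of 15.3 to 20.4 CPM and 24.1 to 30.3 CPM, and of 3 B cell markers tested 2 were higher, the whole list summing to 6.84 to 20.2 CPM and 34.7 to 38.6 CPM. Fibroblast markers summed to 2500 to 2750 CPM and 2820 to 3600 CPM, with 3 of 8 higher at that threshold, and macrophage and monocyte markers to 1370 to 2150 CPM and 1730 to 2070 CPM, with 1 of 10 higher. Of the keratinocyte and skin markers, which summed to 46.1 to 73.5 CPM and to 15.0 to 18.5 CPM, 2 passed the filter. Cdsn, at 43.1 to 69.7 CPM in NaCl and 10.3 to 14.3 CPM in H89 tumors, made up most of that sum and was called lower, while Krt10 had a log2 fold change of 0.31 (adjusted p = 0.465 in edgeR), and Krt1, Dsg1a and Ivl were at 0 in every tumor. Epithelial markers, listed for the tumor cells too, summed to 20.6 to 32.2 CPM and 18.2 to 22.4 CPM. Epcam, Vil1 and Cdx2 were under the filter, and the amount of CT26 cells cannot be read from this list. Of the 5 tested, 4 had a log2 fold change above 0 and 1, Krt18, was lower at an unadjusted p under 0.05 but not after adjustment (adjusted p = 0.0653 in edgeR), at 13.2 to 23.5 CPM in NaCl and 7.75 to 8.31 CPM in H89 tumors. None of the 12 proliferation genes had an unadjusted p under 0.05, and their sums were 2020 to 2250 CPM and 2100 to 2340 CPM. Endothelial markers summed to 96.0 to 160 CPM in NaCl and 82.4 to 124 CPM in H89 tumors, with 5 of 7 below 0. Neutrophil markers summed to 17.9 to 22.1 CPM and 20.8 to 35.3 CPM, with 1 higher and 1 lower at that threshold. The sums of skeletal muscle, adipocyte and erythroid markers also overlapped between the groups.

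Max (ENSMUSG00000059436, chromosome 12, 76937269 to 76962201, minus strand) encodes the partner that MYC, the MXD proteins, MNT and MGA share. It stood at 66.2, 67.6 and 58.7 CPM in NaCl, beside 76.9, 61.0 and 63.7 CPM in H89 tumors, and the groups overlapped. The means were 64.2 ± 4.76 and 67.2 ± 8.52 CPM (SD, n = 3 each), with a log2 fold change of 0.07 (SE 0.11, 95% interval -0.19 to 0.32, adjusted p = 0.738 in edgeR). A difference of the size measured for Myc, in the same direction, lies outside that interval. Such a difference lies inside the intervals of Mxd1, Mxd3 and Mnt given below. The estimate of Max was -0.04 without H89 tumor 1, its highest tumor.

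The repressing partners of MAX overlapped between the groups throughout. Mxd1 (ENSMUSG00000001156, chromosome 6, 86647042 to 86669161, minus strand), known from cells that stop dividing and differentiate, was at 21.2, 13.5 and 16.6 CPM in NaCl and at 13.8, 11.4 and 20.1 CPM in H89 tumors. Its log2 fold change was -0.18 (SE 0.24, 95% interval -0.73 to 0.37, adjusted p = 0.666 in edgeR), the widest interval of the 9, and it was 0.002 without NaCl tumor 1. Mxd3 (ENSMUSG00000021485, chromosome 13, 55325168 to 55329823, minus strand), unlike the other MXD genes a gene of dividing cells, was at 65.2, 64.0 and 44.5 CPM in NaCl and at 55.1, 53.4 and 43.2 CPM in H89 tumors. In both groups of Mxd3, tumor 3 was the lowest, and the log2 fold change was -0.20 (95% interval -0.57 to 0.18, adjusted p = 0.484 in edgeR).

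Mxd4 (ENSMUSG00000037235, chromosome 5, 34173883 to 34187720, minus strand) had the log2 fold change nearest to 0 of the 9. Its values were 48.0, 43.9 and 44.7 CPM in NaCl and 49.0, 43.6 and 40.2 CPM in H89 tumors, with a log2 fold change of -0.04 (95% interval -0.27 to 0.18, adjusted p = 0.817 in edgeR). Its estimate was 0.02 without H89 tumor 3. Mnt (ENSMUSG00000000282, chromosome 11, 74830920 to 74845725, plus strand), the broadly expressed antagonist of MYC, was at 55.2, 44.1 and 44.7 CPM in NaCl and at 33.8, 40.8 and 50.6 CPM in H89 tumors. The highest and the lowest tumor of Mnt were in different groups, yet the others overlapped, and the log2 fold change was -0.20 (95% interval -0.57 to 0.17, adjusted p = 0.461 in edgeR).

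Mga (ENSMUSG00000033943, chromosome 2, 119897228 to 119969581, plus strand) encodes a factor with both a T-box and a MAX-binding domain. It was at 48.9, 50.4 and 55.9 CPM in NaCl and at 51.1, 63.1 and 68.3 CPM in H89 tumors. H89 tumors 2 and 3 were above every NaCl tumor and H89 tumor 1 was not. The means were 51.7 ± 3.67 and 60.8 ± 8.81 CPM (SD, n = 3 each), the log2 fold change was 0.24 (SE 0.12, 95% interval -0.04 to 0.51), and the adjusted p was 0.261 in edgeR.

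On the MLX branch, Mlx (ENSMUSG00000017801, chromosome 11, 101087277 to 101092207, plus strand), the shared partner, was at 36.5, 36.8 and 34.6 CPM in NaCl and at 38.6, 31.6 and 32.4 CPM in H89 tumors. Its log2 fold change was -0.07 (95% interval -0.31 to 0.16, adjusted p = 0.682 in edgeR). Mlxip (ENSMUSG00000038342, chromosome 5, 123394798 to 123457932, plus strand), whose product senses glucose-6-phosphate, was at 49.1, 44.2 and 46.0 CPM in NaCl and at 50.3, 48.7 and 59.4 CPM in H89 tumors. The groups of Mlxip overlapped only between 48.7 and 49.1 CPM, and on library sizes without TMM scaling all H89 tumors lay above all NaCl tumors. Its log2 fold change was 0.19 (95% interval -0.05 to 0.42, adjusted p = 0.287 in edgeR).

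**Figure D3:**
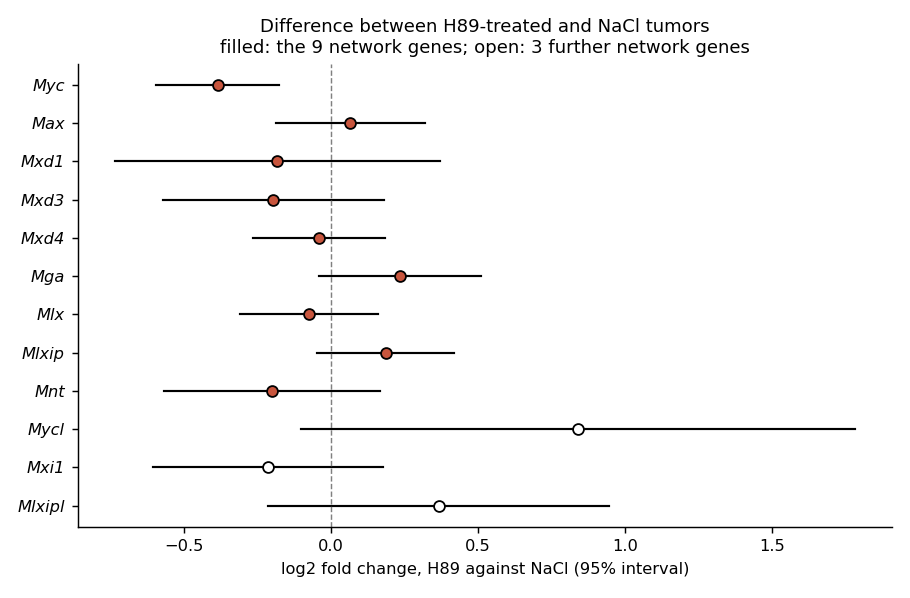
Log2 fold change of H89 against NaCl (horizontal axis) with its 95% interval for the 9 network genes (filled) and 3 further network genes that passed the filter (open). The interval of Myc, -0.59 to -0.18, is the only one that does not include 0, and that of Mycl, with 6 to 27 counts per tumor, is the widest.

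The network has 4 further genes that were not among the members. Mycn, the MYC relative of neural tumors, had 2 to 10 counts per tumor, or 0.0713 to 0.366 CPM, and was under the filter. Mycl, the relative known from lung cancer, passed the filter at 0.356 ± 0.155 CPM in NaCl, beside 0.638 ± 0.169 CPM in H89 tumors (SD, n = 3 each), with a log2 fold change of 0.84 (95% interval -0.10 to 1.78, adjusted p = 0.244 in edgeR). Under quantile normalization that value was 0.21. Mxi1, another MXD repressor, was at 114, 77.1 and 97.8 CPM in NaCl and at 78.2, 71.7 and 99.4 CPM in H89 tumors (log2 fold change -0.21, adjusted p = 0.458 in edgeR). Mlxipl, the factor of liver lipid synthesis, was at 2.06 ± 0.557 CPM and 2.66 ± 0.295 CPM (SD, n = 3 each, log2 fold change 0.37, adjusted p = 0.397 in edgeR). Of the MYC genes, Myc thus carried nearly all counts in every tumor.

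Some counts of the members may include reads of other genes. Mlx overlaps Psmc3ip on the opposite strand by 385 bases, and Mxd3 overlaps Prelid1 by 105 bases, in the annotation GENCODE M21. Mxd4 and Mlxip overlap antisense genes on the opposite strand that are not among the symbols of the table, Gm42846 by 514 bases and Gm15747 by 267 bases. How the authors treated strand is not given in the sources used here, so reads in those stretches cannot be told apart. The estimated counts of Mxd3, Mxd4, Mga, Mlx and Mlxip were fractional, with a largest distance to the nearest whole number of 0.404 (Mga) to 0.489 (Mxd4). Mga shares no exon bases with another gene in that annotation, and where the fractions come from was not tested.

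Levels of different genes were set side by side per length, as CPM per kilobase of annotated exon, over all 6 tumors and with no test. Myc was the highest of the 9, at 73.8 ± 0.948 in NaCl and 56.6 ± 5.08 in H89 tumors (SD, n = 3 each). Its lowest tumor, at 50.8 CPM per kilobase, was above the highest tumor of any other member, Mxd3 at 27.5. After Myc came Mxd3 (mean over the 6 tumors 22.9 CPM per kilobase), Max (18.3) and Mlx (17.6), whose neighbours in the order overlapped in their ranges. Mnt followed at 9.70, then Mlxip at 5.96 and Mxd4 at 5.29, the last pair with overlapping ranges, then Mga at 3.67 and Mxd1 at 2.28. Max therefore stood below Myc per length in every tumor. With the length of the longest coding transcript in place of all exons, 3 members changed rank, and with the median coding transcript 5 did, while Myc, Mxd3, Max and Mlx kept the first ranks under both.

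**Figure D4:**
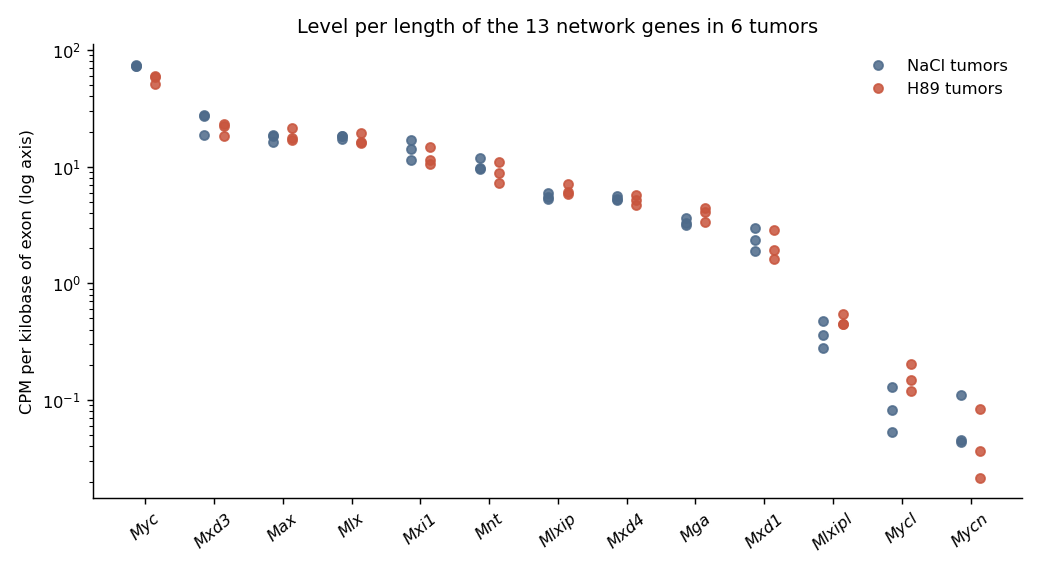
CPM per kilobase of annotated exon (vertical log axis) of the 9 network genes and 4 further network genes in 3 NaCl and 3 H89 tumors, each point being a tumor, ordered by the mean. Myc lies at 50.8 to 74.9 in every tumor, and Mlxipl, Mycl and Mycn lie below 1.

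The balance between MYC and its antagonists among the members was described as the log2 ratio of Myc to the sum of Mxd1, Mxd3, Mxd4 and Mnt. Levels were per length, and Mxi1, a further antagonist that was not a member, was left out of the sum. Its mean over all tumors was 13.2 CPM per kilobase of annotated exon. The ratio depends on the length used. With the median coding transcript, Mxi1 was at 60.2 and Myc at 98.8. With all annotated exons the ratio was as follows. It was 0.612, 0.78 and 1.02 in NaCl and 0.618, 0.66 and 0.465 in H89 tumors. The groups overlapped, with a mean difference of -0.22 on the log2 scale. The log2 ratio of Mlxip to Mlx was -1.63, -1.79 and -1.65 in NaCl and -1.68, -1.43 and -1.18 in H89 tumors, again overlapping, with a mean difference of 0.26.

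Beyond the members, 130 of 133 genes that act with the network were tested, in 8 lists. The lists were written from general knowledge with earlier results of these data known, and the first holds the 4 further factors above. Of the 130 genes, 1 was called higher, Ccnt2, and 2 lower, Slc7a5 and Cdkn1a (edgeR). At an unadjusted p under 0.05, 8 were higher and 24 lower (edgeR), beside 13.1% and 11.9% of all genes. The 24 lower genes were 18.5% of the 130. The median log2 fold change of the 130 was -0.11.

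Of the 52 genes that MYC is known to activate, 0 were called higher and 1 lower, with 2 higher and 16 lower at an unadjusted p under 0.05 (edgeR). The 16 made up 30.8% of the list, where 11.9% of all genes were lower. In all, 42 of the 52 had a log2 fold change below 0 and 10 above, with a median of -0.18. Under quantile normalization 33 were below 0 and 19 above, with a median of -0.12. The called gene, Slc7a5, a carrier that brings large neutral amino acids into the cell, was at 374.4, 406.4 and 399.1 CPM in NaCl and at 246.7, 278 and 222.5 CPM in H89 tumors. All H89 tumors lay far below all NaCl tumors, with a log2 fold change of -0.66 (SE 0.10, adjusted p = 0.0407 in edgeR). The adjusted p of Slc7a5 was 0.0651 under quantile normalization and 0.0667 to 0.142 when 1 tumor of either group was left out. Higher values were seen for Tert, the telomerase catalytic subunit (1.24 ± 0.166 against 2.00 ± 0.166 CPM, SD, n = 3 each, log2 fold change 0.68, adjusted p = 0.124 in edgeR), and for Tfrc, the transferrin receptor (45.94, 62.8 and 41.38 CPM in NaCl against 56.71, 67.35 and 73.35 CPM, log2 fold change 0.40, adjusted p = 0.19 in edgeR).

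Of 15 genes that MYC is known to repress, 13 were tested, with 0 called higher and 1 lower, or 2 higher and 3 lower at an unadjusted p under 0.05 (edgeR). The 3 lower genes made up 23.1% of the 13 and the 2 higher genes 15.4%, where 11.9% of all genes were lower and 13.1% higher. Here too most had negative values, 11 below 0 and 2 above, with a median of -0.31. Cdkn1a, the cyclin-dependent kinase inhibitor p21 and a p53 target, was at 347.7, 316.5 and 300.8 CPM in NaCl and at 207.6, 171.4 and 210.3 CPM in H89 tumors. It fell by 0.71 on the log2 scale (SE 0.11, adjusted p = 0.0407 in edgeR), with an adjusted p of 0.0667 to 0.142 when 1 tumor was left out. Tgfbi, a secreted matrix protein, was at 101 ± 21.6 CPM in NaCl, beside 156 ± 6.66 CPM in H89 tumors (SD, n = 3 each), with a log2 fold change of 0.64 and an adjusted p of 0.0679 in edgeR. Cdkn1b, the inhibitor p27, was at 44.8 ± 4.74 and 55.4 ± 3.45 CPM (SD, n = 3 each, log2 fold change 0.31, adjusted p = 0.125 in edgeR).

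**Figure D5:**
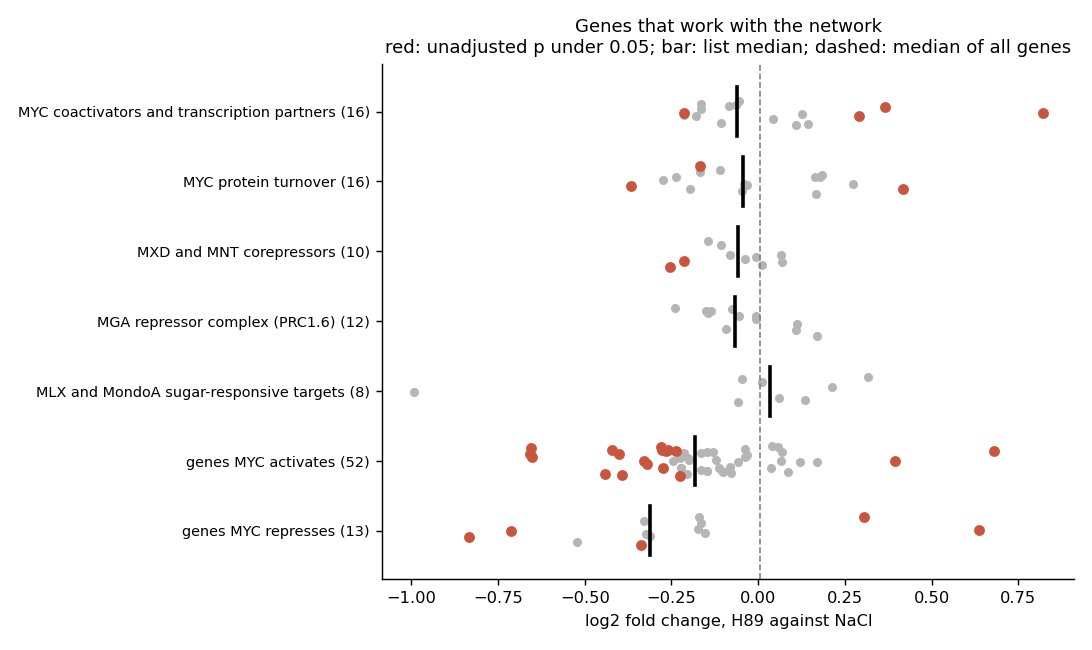
Log2 fold change of H89 against NaCl (horizontal axis) of each tested gene in 7 lists of genes that act with the network, the number of tested genes in parentheses. Black bars are list medians, from -0.31 (genes MYC represses) to 0.03 (MLX and MondoA sugar-responsive targets), and red points have an unadjusted p under 0.05.

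Among 16 coactivators and transcription partners of MYC, 1 was called higher and 0 lower (3 and 1 at an unadjusted p under 0.05, edgeR). At that unadjusted threshold 18.8% of the list were higher and 6.25% lower, beside 13.1% and 11.9% of all genes. The called gene, Ccnt2, encodes cyclin T2, a subunit of the elongation factor P-TEFb. It was at 46.2, 48.2 and 51.9 CPM in NaCl and at 84.0, 90.0 and 84.5 CPM in H89 tumors. The groups were far apart, at a log2 fold change of 0.82 (SE 0.08, adjusted p = 0.0288 in edgeR), and with 1 tumor left out the adjusted p ranged from 0.0448 to 0.127. In the other direction, Wdr5, a chromatin adaptor that binds MYC, was at 86.9 ± 2.59 and 74.8 ± 3.23 CPM (SD, n = 3 each, log2 fold change -0.21, adjusted p = 0.136 in edgeR), and Supt5 had -0.18 (adjusted p = 0.22 in edgeR).

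The 16 genes of MYC protein turnover had 0 called in either direction, with 1 higher and 2 lower at an unadjusted p under 0.05 (edgeR). That was 6.25% higher and 12.5% lower, beside 13.1% and 11.9% of all genes. Cip2a, which shields MYC from the phosphatase PP2A, was at 50.7 ± 8.02 CPM in NaCl, beside 67.7 ± 5.06 CPM in H89 tumors (SD, n = 3 each, log2 fold change 0.42, adjusted p = 0.106 in edgeR). Usp7, a deubiquitinase, had a log2 fold change of 0.18 (adjusted p = 0.211 in edgeR). Ppp2r5a, a PP2A regulatory subunit, had a log2 fold change of -0.17 (adjusted p = 0.2 in edgeR).

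The partners of the repressors gave few low p-values. Of 10 corepressors of MXD and MNT, 0 were called, and 0 were higher and 2 lower at an unadjusted p under 0.05 (edgeR). These were Suds3 (log2 fold change -0.26, adjusted p = 0.152) and Rbbp4 (-0.21, adjusted p = 0.16), while the histone deacetylase genes Hdac1 and Hdac2 had 0.07 and 0.07. Of 12 genes of the PRC1.6 complex of MGA and of 8 sugar-responsive targets of MLX and MondoA, 0 were called. In both lists 0 had an unadjusted p under 0.05 (edgeR), beside 25.0% of all genes. In the former, log2 fold changes ran from -0.24 (Tfdp2) to 0.17 (E2f6), with Yaf2 at -0.15 and Ehmt1 at 0.11. In the latter, Arrdc3 had 0.21, Klf10 had -0.06, and G0s2, under 2 CPM in every tumor, had -0.99. Pfkfb3, a glycolytic enzyme, was at 15.2, 14.5 and 15.4 CPM in NaCl and at 10.8, 12.6 and 32.7 CPM in H89 tumors. H89 tumor 3 alone was high, and the log2 fold change of Pfkfb3 changed from 0.32 to -0.36 without it.

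For each member, the 3 tested genes with the most similar profile over the 6 tumors were taken by the root mean square (RMS) difference of mean-centred log2(CPM + 0.5). The genes nearest to Myc were Gtf3a (RMS difference 0.029), the RNA polymerase III factor for 5S ribosomal RNA, Mrrf (0.030), a mitochondrial ribosome recycling factor, and Nutf2 (0.030), a nuclear import factor. All H89 tumors lay below all NaCl tumors in these 3 genes, with log2 fold changes of -0.43, -0.41 and -0.38. They were chosen for nearness to Myc, whose groups did not overlap, so these values follow from that choice. The nearest to Max was Osr1 (0.037), to Mxd1 Rapsn (0.081), to Mxd3 Kazald1 (0.054), to Mxd4 Hebp1 (0.023), to Mga Zmym2 (0.028), to Mlx Flad1 (0.026), to Mlxip Ugcg (0.028) and to Mnt B4galt1 (0.049). Likeness over 6 tumors is given as a description.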

How the data were processed

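Total RNA of 6 CT26 tumors (3 NaCl, 3 H89) was sequenced on the BGISEQ-500. The authors deposited 1 table of estimated counts per gene. It is called TPM, but its values sum to 27067349 to 31958793 per tumor, and were therefore read as unscaled counts. The submitters' processing notes name kallisto, DESeq2 and GRCm38, without versions. Tumors were grouped by their labels.

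Counts were rounded and tested with edgeR 4.0.16 in R 4.3.3 (TMM, glmQLFit, glmQLFTest, treatment only, all 6 tumors, genes with a mean of at least 0.5 CPM, Benjamini-Hochberg adjustment). The procedure was tested on simulated data. The members and lists were chosen with earlier results of these data known, and the lists are from general knowledge. Genes named were all members and other network genes, every list gene past the threshold (at most 5 per direction), otherwise the 2 with the smallest p in each direction, and the 3 nearest profiles of each member. Of these, 1 list gene is not reported here. Fits with DESeq2 1.42.0, limma 3.58.1 (voom, quantile normalization), median ratio size factors, no filter, at least 5 CPM, a replicate block, and each tumor left out were alternatives. Positions are of GENCODE M21 and promoters of RefSeq.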

Additional observations from a re-analysis of the deposited data

How the results depend on the processing

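The direction of Myc was the same in all 13 alternatives. With 3 tumors per group, a log2 difference must be large against the spread between tumors to pass adjustment, and counting error weighs most on Mycn and Mycl. Members called lower numbered 0 in edgeR and 1 in DESeq2, and 0 were called higher in any fit. Genes of the pathway lists called numbered 3, or 17 by DESeq2, 5 without a filter and 0 to 1 with 1 tumor left out. Over all genes, 208 were called, or 1392 by DESeq2, 80 under quantile normalization and 0 to 12 with 1 tumor left out. With the replicate number as a block, 0 genes in all and 0 pathway genes were called, and Myc was at -0.39 (adjusted p = 0.0763). Same-numbered tumors correlated at 0.16, 0.06 and -0.03 in their deviations from the group means, and differently numbered tumors at -0.37 to 0.35. The labels do not say whether same-numbered tumors share more than a number. The order of levels changed for 5 members with the median coding transcript and for 3 with the longest. With 1 tumor left out, Max ranged from -0.040 (without H89 tumor 1) to 0.13, Mxd1 from -0.45 to 0.0021 (without NaCl tumor 1), Mxd4 from -0.12 to 0.021 (without H89 tumor 3) and Pfkfb3 from -0.36 (without H89 tumor 3) to 0.59. The cause of these changes was not tested. Mycl could not be tested at a minimum of 5 CPM or in 4 of the 6 fits that left out a tumor.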
